A study of Mus musculus with 2 samples.

Results

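The genes described here encode the cytosolic translation initiation and elongation factors, chosen by name: protein-coding genes whose mouse symbol begins with Eif1 to Eif6 or with Eef. The inhibitor genes Eif4ebp1, Eif4ebp2 and Eif4enif1 were left out of the set and are given with other genes of the pathway. The rule found 67 of the 27179 genes in the count table. Of these, 63 reached at least 1 CPM (counts divided by the TMM-scaled library total, in units of 1e6) in 1 library or more, and all 63 did so in both libraries. The other 4 were near or at 0: Eef1a2, the elongation factor paralog of muscle and neurons, had 1 count untreated and 2 with Dox, the Y-linked eIF2 gene Eif2s3y had 2 and 0, and Eif4e1b and Eef1akmt3 had 0 in both.

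Initiation begins when eIF2, a GTP-binding trimer, brings the initiator tRNA to the small ribosomal subunit together with eIF1, eIF1A, eIF5 and the large scaffold eIF3. The eIF4F complex (the cap-binding protein eIF4E, the helicase eIF4A and the scaffold eIF4G) recruits the messenger RNA, and eIF2B recharges eIF2 with GTP after each round. Elongation then uses eEF1A to deliver aminoacyl-tRNAs and eEF2 to move the ribosome along. Growing lymphoid and leukemic cells need high amounts of this machinery, and many of its genes are known targets of MYC.

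The cells were ALL211, a primary mouse T-cell leukemia with the transgenes Vav-tTA and TRE-GFP-shIkaros, in which the Vav promoter, active in blood cells, drives a transactivator that turns on a hairpin against Ikaros linked to GFP. Both groups carry these transgenes and come from 1 leukemia, grown in recipient mice and sorted by FACS from spleen. In the untreated group the hairpin was on and GFP-high cells were collected (n = 1 library). The other group received doxycycline (Dox), which shuts the hairpin off and lets Ikaros return, and its GFP-mid cells were collected after 3 days (n = 1 library). Cells lacking the hairpin but given Dox were not analysed here. The series design speaks of 2 mice per condition and the labels give 1 sample each. The sources used here do not say whether RNA was pooled, nor give the age or strain of the mice.

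Each condition had 1 library, so the differences below lack a replicate check and carry no p-value. Treatment, sorting gate and mouse differ together between the libraries and cannot be told apart. In sorted bulk cells, fewer cells of a type and less RNA per cell cannot be told apart either. The libraries held 16960042 (untreated) and 16484613 (Dox) counts. Log2 folds are Dox over untreated, and brackets give 95% intervals that cover counting error only, without the error between animals. The targeted gene Ikzf1 was 10.2-fold higher in the Dox library (120.5 and 1229 CPM), the direction its label gives. All 8 T-lineage markers checked were present, with a summed level of 5745 CPM untreated against 7069 CPM with Dox. Markers of other cells were low and higher in the Dox library: 10 macrophage markers summed to 9.14 and 155.0 CPM (3 and 10 of them at 1 CPM or more), 6 dendritic cell markers to 0.410 and 36.8 CPM (4 at 0 untreated) and 5 erythroid markers to 5.51 and 42.6 CPM. Much of the macrophage sum with Dox was Mpeg1, at 1.64 CPM untreated and 96.8 CPM with Dox. Of 6 B-cell markers none reached 1 CPM, with Pax5 at 0 in both libraries. The part of these cells in the folds below was not tested.

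Most translation factor genes had lower levels in the Dox library. Of the 63 measured, 51 (81.0%) had a log2 fold below 0, against 50.7% of all 12125 measured genes, and 15 were at least 2-fold lower, against 13.0% of all genes. None was at least 2-fold higher, against 13.6% of all genes. The median log2 fold was -0.61, while that of all genes was -0.01. At 1.5-fold, 33 members were lower (24.1% of all genes) and 1 was higher (23.6% of all genes). The counting interval lay below 0 for 51 members, above 0 for 11 and across 0 for 1. The same count was not made for all genes, so it sets these members apart from no background. Together the 63 genes took 2.90% of counts without Dox and 2.02% with it, a log2 ratio of the sums of -0.50 (-0.51 to -0.49).

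**Figure D1:**
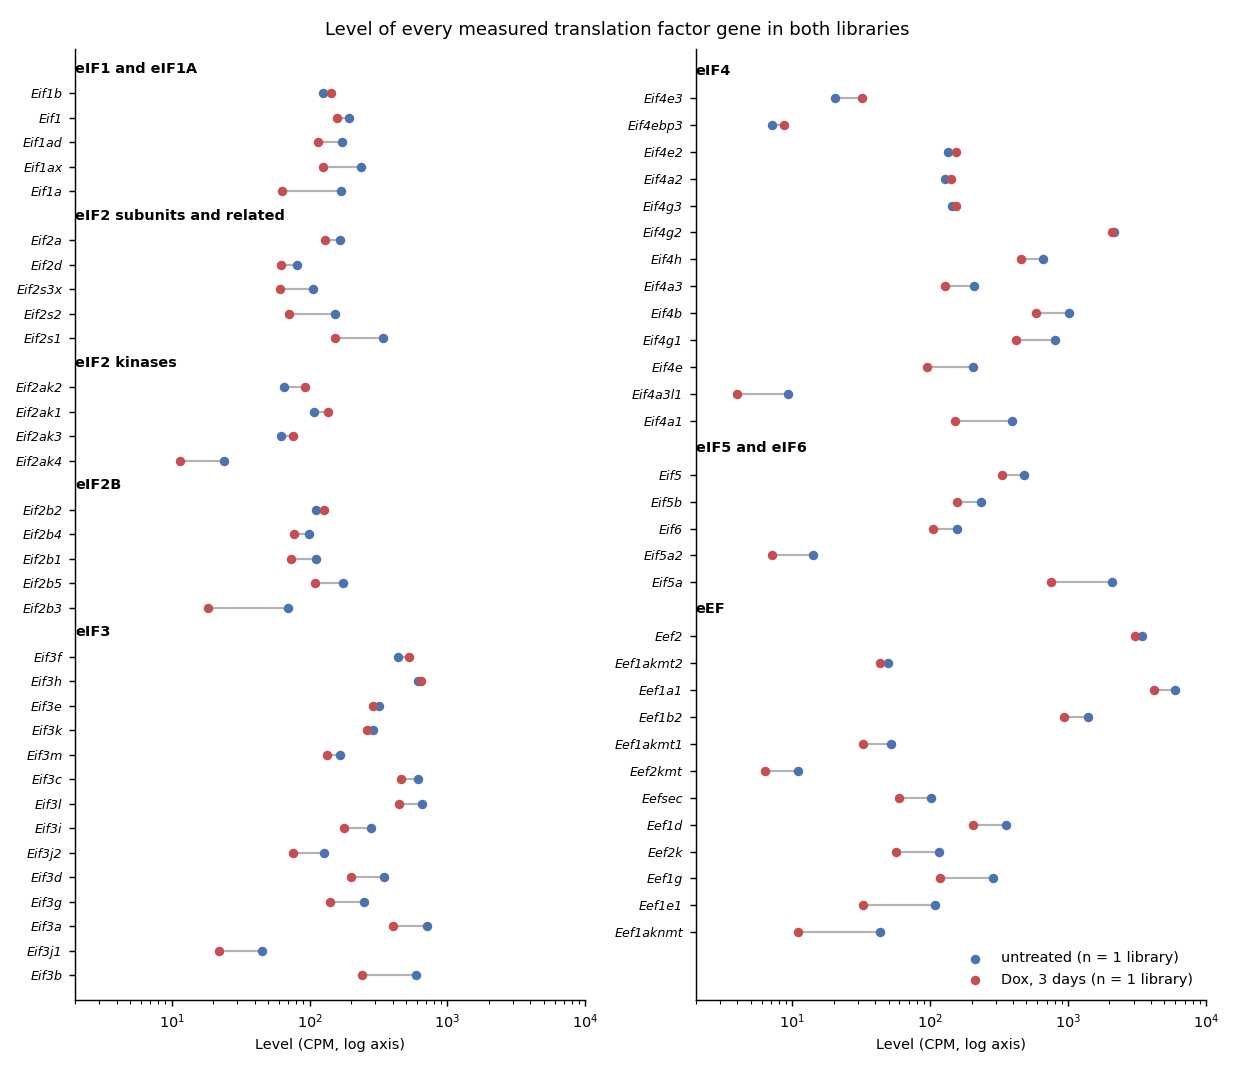
Level in CPM (log axis) of the 63 measured translation factor genes in the untreated library (blue) and the Dox library (red), 1 library each, ordered within each group from the highest to the lowest log2 fold. Eef1a1 and Eef2 are the most abundant in both libraries, and 51 of 63 red points lie left of the blue ones.

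The start codon selection factors split by paralog. Eif1a, 1 of the genes for eIF1A, which keeps the scanning ribosome open, stood at 169.4 CPM untreated against 63.3 CPM with Dox, 2.68-fold lower (2892 and 1037 counts; log2 fold -1.42, interval -1.52 to -1.32). Its X-linked paralog Eif1ax was at 237.1 and 126.1 CPM (log2 fold -0.91). Both eIF1A genes were thus lower in the Dox library. Eif1, which guards against initiation at wrong codons, differed less (193.1 and 159.2 CPM, log2 fold -0.28), and its paralog Eif1b was slightly higher (125.8 and 144.0 CPM, 2147 and 2359 counts; 0.20, interval 0.11 to 0.28). Eif1ad, which encodes a protein with an eIF1A-like domain, was at 170.6 and 115.8 CPM (-0.56).

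All 3 measured genes of the eIF2 trimer were lower in the Dox library. Eif2s1, the alpha subunit that stress kinases phosphorylate (Entrez 13665; GRCm38 chromosome 12, 78862072 to 78887010), stood at 340.1 CPM untreated against 153.7 CPM with Dox, from 5805 and 2517 counts (-1.15, interval -1.21 to -1.08). Eif2s2, the beta subunit, was at 153.8 and 71.3 CPM (2626 and 1167 counts; -1.11, interval -1.21 to -1.01), and Eif2s3x, the gamma subunit that binds GTP and tRNA, at 106.2 and 61.4 CPM (-0.79, interval -0.90 to -0.68). The log2 ratio of their summed counts was -1.07. Eif2a and Eif2d encode single-chain factors that can bring tRNA to the ribosome without eIF2. They differed less, with 165.3 and 130.1 CPM for Eif2a (2822 and 2131 counts; -0.35, interval -0.43 to -0.26) and 81.0 and 62.2 CPM for Eif2d (-0.38).

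The 4 kinases that switch eIF2 off did not share a direction. Eif2ak2, the interferon-induced kinase PKR, was at 65.0 and 93.2 CPM (1109 and 1526 counts; log2 fold 0.52, interval 0.41 to 0.63). Eif2ak1, the heme-regulated kinase HRI, was at 107.6 and 135.7 CPM (0.34), and Eif2ak3, the endoplasmic reticulum kinase PERK, at 61.8 and 76.3 CPM (0.30). Eif2ak4, the amino acid sensor GCN2, was the exception, 2.09-fold lower (24.1 and 11.5 CPM, from 412 and 189 counts; -1.06, interval -1.32 to -0.81). Macrophage markers, summing to 9.14 and 155.0 CPM (Mpeg1 alone 1.64 and 96.8 CPM), were higher in the same library as the first 3 kinases. Dendritic cell and erythroid markers were higher there too. The part of these cells in the kinase values was not tested.

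The 5 subunits of eIF2B, the exchange factor for eIF2, did not move in step. Eif2b3, the gamma subunit of the catalytic part (Entrez 108067; GRCm38 chromosome 4, 117019399 to 117086852), stood at 69.8 CPM untreated against 18.3 CPM with Dox, 3.82-fold lower (1191 and 299 counts; log2 fold -1.93, interval -2.12 to -1.75). Eif2b5, the catalytic epsilon subunit, was at 174.3 and 109.3 CPM (-0.67), and Eif2b1, the regulatory alpha subunit, at 112.2 and 73.3 CPM (-0.61). Of the other regulatory subunits, Eif2b4 was at 98.4 and 77.7 CPM (-0.34) and Eif2b2 at 111.5 and 128.3 CPM (1903 and 2101 counts; 0.20, interval 0.11 to 0.29). Per kilobase of the deposited gene length, the 5 subunit levels spanned a 4.09-fold range without Dox and an 18-fold range with it. Eif2b3 was the lowest and Eif2b2 the highest in both.

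The 14 eIF3 genes ranged from -1.31 to 0.27, and 2 (14.3%) were at least 2-fold lower, a share near the 13.0% of all genes. Eif3b, an RNA-binding subunit of the core (Entrez 27979; GRCm38 chromosome 5, 140419305 to 140443358), stood at 593.5 CPM untreated against 238.7 CPM with Dox, 2.49-fold lower (10131 and 3910 counts; interval -1.37 to -1.26). Eif3a, the largest subunit and backbone, was at 712.4 and 402.3 CPM (-0.82), Eif3g at 246.5 and 140.7 CPM (-0.81), Eif3i at 278.6 and 178.7 CPM (-0.64) and Eif3c at 607.4 and 459.2 CPM (-0.40). These 5 are core subunits shared with budding yeast eIF3, and their median log2 fold was -0.81.

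The 7 other subunits of the eIF3 body had a median of -0.15, and none was at least 2-fold lower, against 13.0% of all genes. Eif3f, a subunit with an MPN domain, was higher in the Dox library (434.4 and 522.2 CPM, 7416 and 8553 counts; 0.27, interval 0.22 to 0.31). The second MPN subunit, Eif3h, was nearly level (611.6 and 639.6 CPM; 0.06, interval 0.03 to 0.10). Eif3e was at 317.0 and 287.0 CPM (-0.14), Eif3k at 289.0 and 260.0 CPM (-0.15) and Eif3m at 166.5 and 133.8 CPM (-0.32). Eif3l was at 655.0 and 448.7 CPM (-0.55), and Eif3d, a subunit able to bind the cap, at 349.2 and 200.7 CPM (-0.80), within the range of the first 5. The division into these 2 sets was made after the values were seen and has no test. The loosely bound eIF3j is encoded by Eif3j1 (44.9 and 22.0 CPM, 766 and 361 counts; -1.02, interval -1.21 to -0.84) and Eif3j2 (127.2 and 75.9 CPM; -0.74), whose transcripts are near-identical, so that their split of reads is uncertain.

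**Figure D2:**
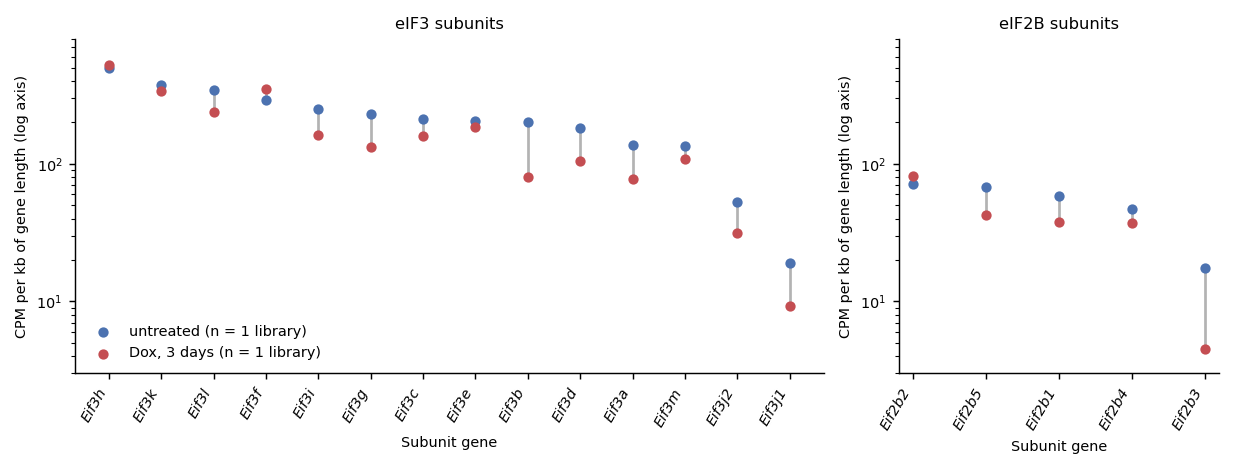
CPM per kilobase of gene length (log axis) for the 14 eIF3 genes and the 5 eIF2B genes in the untreated (blue) and Dox (red) library, 1 library each. Among eIF3 genes without eIF3j, the span from the lowest to the highest subunit is 3.68-fold untreated and 6.70-fold Dox, and Eif2b3 stands apart at the lower end of eIF2B.

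Within eIF4, the 3 genes of the cap-binding complex eIF4F were lower in the Dox library, and their 5 paralogs had smaller folds; this division was made after the values were seen. Eif4a1, the main eIF4A helicase (Entrez 13681; GRCm38 chromosome 11, 69666936 to 69672423), stood at 391.1 CPM untreated against 151.6 CPM with Dox, from 6676 and 2483 counts (-1.37, interval -1.43 to -1.30). Eif4e, the cap-binding protein, was at 204.9 and 94.5 CPM, from 3497 and 1547 counts (-1.12, interval -1.20 to -1.03). Eif4g1, the main scaffold, was at 803.9 and 422.2 CPM (-0.93, interval -0.97 to -0.89). The log2 ratio of the summed counts of the 3 genes was -1.07.

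The 5 paralogs lay between -0.03 and 0.64. Eif4a2, the second eIF4A helicase, was at 127.7 and 142.3 CPM (0.16, interval 0.07 to 0.24). Eif4e2, a cap-binding protein that can repress translation, was at 135.4 and 154.1 CPM (0.19). Eif4e3, another cap-binding protein, was the highest of all members by fold, 1.57-fold higher from low levels (20.4 and 31.9 CPM, 348 and 523 counts; 0.64, interval 0.45 to 0.85). Eif4g3 was at 145.2 and 154.4 CPM (0.09), and Eif4g2, a scaffold that lacks the eIF4E binding site, at 2139 and 2097 CPM (-0.03).

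The remaining eIF4 genes were lower or at low levels. Eif4b and Eif4h, cofactors of the helicase, were at 1023 and 587.0 CPM (-0.80) and at 664.1 and 453.2 CPM (-0.55). Eif4a3, a helicase of the exon junction complex, was at 207.0 and 127.8 CPM (-0.70). Its near-identical copy Eif4a3l1 had 159 and 65 counts (-1.21, interval -1.67 to -0.81), and reads of the pair may be shared. Eif4ebp3, an inhibitor of eIF4E, had 122 and 142 counts (0.27, interval -0.08 to 0.64).

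The ratio of counts between 2 genes in 1 library does not depend on library scaling. It can depend on how reads of shared stretches were assigned. Transcripts of other genes hold near-identical stretches over 43.4% of the Eif4a1 transcript, 15.5% of Eif4a2 and 13.1% of Eif4e. Eif4a1 had 3.06 counts per count of Eif4a2 without Dox and 1.07 with it, a log2 shift of -1.52 (-1.63 to -1.41). Eif4e had 1.51 and 0.613 counts per count of Eif4e2 (shift -1.30, interval -1.42 to -1.18), and against Eif4e3 it shifted by -1.76 (-1.98 to -1.55). Eif4g1 had 0.376 and 0.201 counts per count of Eif4g2 (-0.90) and 5.54 and 2.74 per count of Eif4g3 (-1.02). Relative to Eif4a1, Eif4e and Eif4g1, the Dox library thus held more of the paralogs paired with them here. The helicase genes Eif4a3 (-0.70) and Eif4a3l1 (-1.21) were lower and were not among the pairs. Of the other pairs compared, Eif1 against Eif1b shifted by -0.47, Eif1a against Eif1ax by -0.51, Eif5a against Eif5a2 by -0.50 and Eif3j1 against Eif3j2 by -0.28. Among kinases, Eif2ak2 against Eif2ak4 shifted by 1.58 and Eif2ak1 against Eif2ak3 by 0.03 (-0.12 to 0.18). The 11 shifts have counting intervals and no test between conditions.

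**Figure D3:**
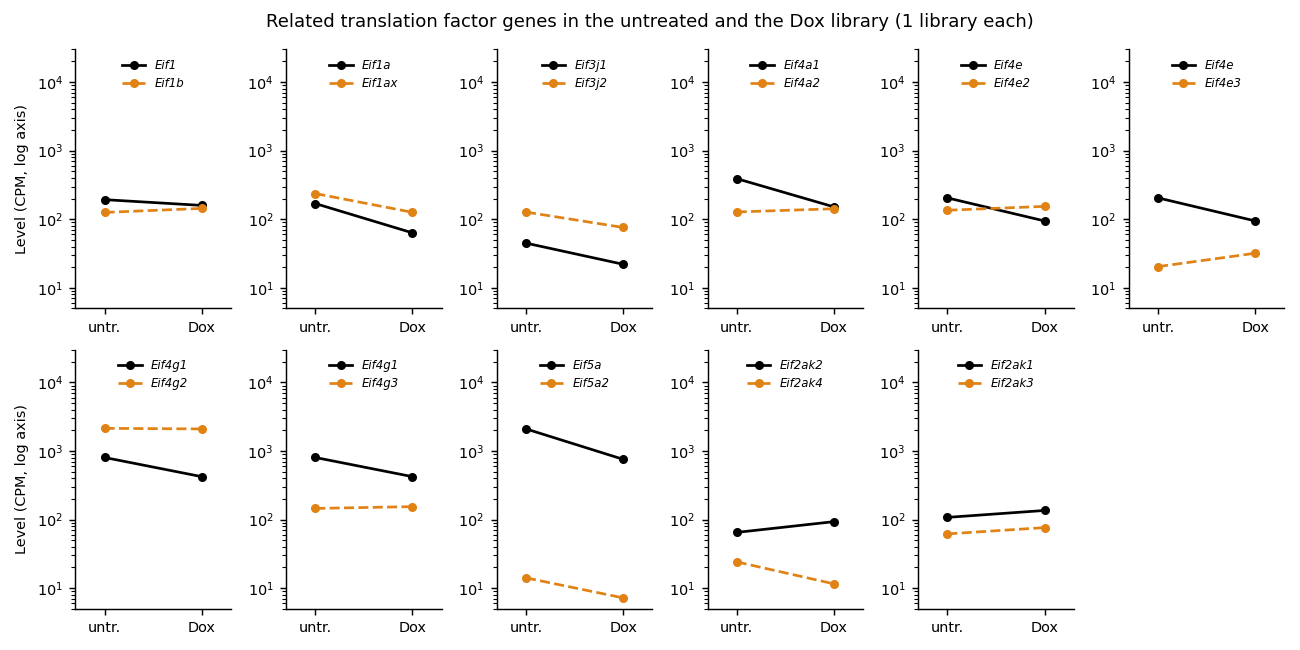
Level in CPM (log axis) of the 11 pairs of related genes in the untreated and Dox library, 1 library each; the solid black line is the first gene of a pair and the dashed orange line the second. Lines for Eif4a1 with Eif4a2 converge and those for Eif4e and Eif4e2 cross, while Eif2ak1 and Eif2ak3 run parallel.

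Promoter sequence was compared because many of these genes had lower levels together in the library in which Myc was also 14-fold lower (265.7 and 18.9 CPM), whose part in these levels was not tested. The E-box bound by MYC and by other factors, CACGTG (the same on both strands), was sought in RefSeq windows of build GRCm38.p6, from 250 bases before to 50 bases after each annotated start. Windows were found for 50 of the 63 members. The E-box was in at least 1 window of 13 (26.0%), against 1102 of 9305 measured genes (11.8%). Counted by window, it was in 15 of 62 member windows and in 1181 of 11794 windows of measured genes. Members with it had a median log2 fold of -0.93 (n = 13, from -1.95 to 0.27), and members without it -0.57 (n = 37, from -1.71 to 0.52). It was present for 5 of 12 members at least 2-fold lower and 8 of 38 others. The lower members had more windows per gene (Eif5a alone had 6). By window the motif was in 7 of 21 (33.3%) for the lower members and 8 of 41 (19.5%) for the others. Windows of 1 gene can overlap and are not independent. Eif5a alone gave 6 of those 21 windows and 3 of the 7 with the motif. The difference between the lower and the other members was not tested. A match describes letters and shows no binding.

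The sequences before the start of 5 genes show the contrast between Eif4a1 and its paralog Eif4a2, of 2 further genes that were lower, and of Eef2, which has the motif and differed little. Each is written 5′ to 3′ on the gene's strand, with CACGTG in capitals, and bases that GENCODE annotates as exon were trimmed off. Eif4a1 (chr11:69672424-69672673, minus strand) carries the motif at -189 from the start, Eif4g1 (chr16:20672477-20672722, plus strand) first at -54, the Eif5a window shown (chr11:69921387-69921636, minus strand; 3 of 6 Eif5a windows hold the motif) at -74 and Eef2 (chr10:81176381-81176630, plus strand) at -43. Eif4a2 (chr16:23107218-23107443, plus strand) has no match. Nor does the window at the outermost start of Eif5a (chr11:69921959-69922208). The genes shown are examples and do not represent the set. No window held the motif for 7 members at least 2-fold lower, among them Eif2s1, Eif2s2, Eif3b and Eef1e1. Eif1b and Eif3f, with positive log2 folds, carry it.
Eif4a1: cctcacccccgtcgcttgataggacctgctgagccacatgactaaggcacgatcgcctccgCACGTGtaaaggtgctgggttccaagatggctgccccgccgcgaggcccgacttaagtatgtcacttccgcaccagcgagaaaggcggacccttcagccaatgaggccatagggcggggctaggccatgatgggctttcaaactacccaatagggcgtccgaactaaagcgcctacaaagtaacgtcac
Eif4a2: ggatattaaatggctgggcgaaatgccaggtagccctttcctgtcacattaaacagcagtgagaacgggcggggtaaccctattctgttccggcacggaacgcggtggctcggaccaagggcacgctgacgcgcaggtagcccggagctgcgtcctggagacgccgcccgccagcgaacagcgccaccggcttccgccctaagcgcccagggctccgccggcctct
Eif4g1: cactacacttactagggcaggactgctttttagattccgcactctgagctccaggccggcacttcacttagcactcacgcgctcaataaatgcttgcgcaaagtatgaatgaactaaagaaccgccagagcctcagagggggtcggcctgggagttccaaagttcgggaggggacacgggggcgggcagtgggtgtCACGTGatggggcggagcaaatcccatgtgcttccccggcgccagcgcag
Eif5a: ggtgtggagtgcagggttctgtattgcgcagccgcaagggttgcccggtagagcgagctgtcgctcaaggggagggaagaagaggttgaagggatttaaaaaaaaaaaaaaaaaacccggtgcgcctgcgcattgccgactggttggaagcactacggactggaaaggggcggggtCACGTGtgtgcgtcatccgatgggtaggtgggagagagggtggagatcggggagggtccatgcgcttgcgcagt
Eef2: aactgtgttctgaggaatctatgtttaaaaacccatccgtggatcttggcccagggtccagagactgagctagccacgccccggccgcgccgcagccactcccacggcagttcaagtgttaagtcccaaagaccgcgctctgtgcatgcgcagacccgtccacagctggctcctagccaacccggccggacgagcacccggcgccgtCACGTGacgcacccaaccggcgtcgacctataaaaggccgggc

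Eif5a had the lowest log2 fold among the 5 measured eIF5 and eIF6 genes. It encodes eIF5A, which carries the modified residue hypusine and helps ribosomes through stalling sequences (Entrez 276770; GRCm38 chromosome 11, 69916712 to 69921958). Its level was 2098 CPM untreated against 756.0 CPM with Dox, from 35807 and 12381 counts, 2.77-fold lower (log2 fold -1.47, interval -1.50 to -1.44). Among measured genes its level per length was at percentile 99.6 untreated and 98.6 with Dox. Transcripts of other genes hold near-identical stretches over 32.2% of the Eif5a transcript, so some reads of Eif5a may be shared. The paralog Eif5a2 was low (14.1 and 7.21 CPM, 241 and 118 counts, log2 fold -0.96, interval -1.30 to -0.65). Eif5, which triggers GTP hydrolysis by eIF2, was at 479.3 and 334.1 CPM (8182 and 5471 counts; -0.52, interval -0.57 to -0.47). Eif5b, the GTPase that joins the subunits, was at 235.0 and 156.9 CPM (-0.58), and Eif6, which keeps free large subunits apart from small ones, at 158.0 and 104.3 CPM (-0.60). All 5 genes of this group had a negative log2 fold.

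The 3 most abundant elongation factor genes differed by less than 1.5-fold. Eef1a1, which encodes the tRNA carrier eEF1A, had the highest level of all members, 5953 CPM untreated against 4183 CPM with Dox (-0.51, interval -0.52 to -0.50). Eef2, the translocase, was at 3470 and 3070 CPM (59228 and 50276 counts; -0.18, interval -0.19 to -0.16). Eef1b2, a nucleotide exchange subunit for eEF1A, was at 1393 and 935.4 CPM (-0.57). The other exchange subunits were lower. Eef1g, the gamma subunit, was at 287.5 and 119.0 CPM, from 4908 and 1949 counts (-1.27, interval -1.35 to -1.20), and Eef1d, the delta subunit, at 355.4 and 204.1 CPM (-0.80). Reads of Eef1a1 and Eef1g are uncertain, since transcripts of other genes hold near-identical stretches over 87.6% and 72% of their lengths.

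Of the 12 measured eEF genes, 4 (33.3%) were at least 2-fold lower, against 13.0% of all genes. Besides Eef1g, these were 3 genes beside the core elongation cycle. Eef1aknmt, a methyltransferase of eEF1A, stood at 43.4 CPM untreated against 11.1 CPM with Dox, 3.90-fold lower (740 and 182 counts; log2 fold -1.95, interval -2.21 to -1.73). Eef1e1, an auxiliary protein of the multi-synthetase complex, was 3.29-fold lower (108.3 and 32.9 CPM, 1848 and 539 counts; -1.71, interval -1.86 to -1.58). Eef2k, the kinase that inhibits eEF2, was at 115.8 and 56.7 CPM (1976 and 928 counts; -1.03, interval -1.14 to -0.92). Eefsec, which delivers selenocysteine tRNA, was at 102.0 and 59.2 CPM (-0.78). The methyltransferase genes Eef1akmt1 (52.4 and 32.9 CPM, -0.67) and Eef2kmt (10.95 and 6.41 CPM, -0.76) were lower, and Eef1akmt2 differed little (49.8 and 43.6 CPM, -0.19). By fold, Eef1aknmt and Eif2b3 ranked 402 and 418 from the lowest of 12125 genes, so larger differences in that direction were found among other genes.

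Set side by side, the medians of 7 groups lay between -0.79 and -0.55, and that of the eIF2 kinases lay above 0. The counts of members at least 2-fold lower are to be read against 13.0% of all genes; for eIF3 the share was 14.3%, near that background. The median log2 fold was -0.79 for eIF2 and related genes (2 of 5 at least 2-fold lower), -0.61 for eIF2B (1 of 5), -0.59 for eIF3 (2 of 14), -0.55 for eIF4 (3 of 13) and -0.77 for eEF (4 of 12). For eIF1 and eIF1A it was -0.56 (1 of 5), for eIF5 and eIF6 -0.60 (1 of 5) and for the eIF2 kinases 0.32 (1 of 4). Within eIF4 the members spanned -1.37 to 0.64, within eIF3 -1.31 to 0.27 and within eIF2B -1.93 to 0.20. With 1 library per condition, a difference between groups could not be tested. By summed counts, which the abundant genes set, the log2 ratio was -0.82 for eIF2 and related genes, -0.48 for eIF2B and -0.44 for eIF3. It was -0.41 for eIF4 and -0.45 for eEF, and -1.14 for eIF5 and eIF6 through Eif5a.

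**Figure D4:**
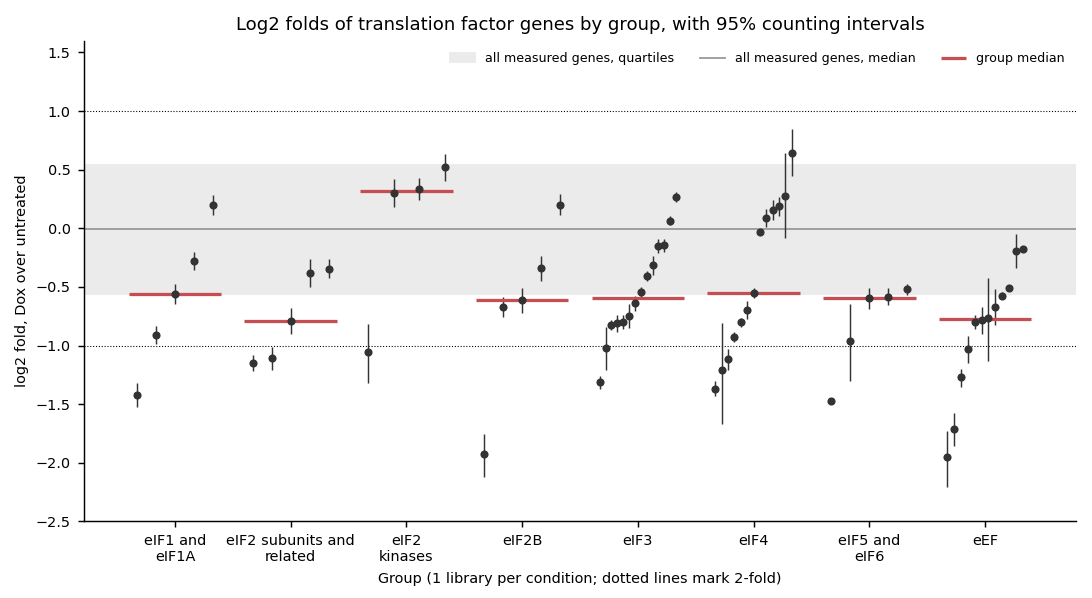
Log2 fold of each of the 63 genes by group (points) with 95% counting intervals (vertical lines), group medians (red lines) and the quartiles and median of all 12125 measured genes (grey). The medians of 7 groups lie between -0.79 and -0.55, and only the eIF2 kinases have a median above 0 (0.32).

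Other genes of translation were read from lists beside the factors. Of 4 inhibitors of the cap complex, Pdcd4, which blocks eIF4A, was at 110.8 and 388.6 CPM (log2 fold 1.81, interval 1.74 to 1.88), Eif4ebp1 at 28.9 and 11.8 CPM (-1.28), Eif4ebp2 at 163.6 and 211.4 CPM (0.37) and Eif4enif1 at 123.0 and 103.7 CPM (-0.25). Of these, Pdcd4 passed 2-fold upwards and Eif4ebp1 downwards, against 13.6% and 13.0% of all genes. Of 8 genes that signal to initiation, 1 (12.5%) was at least 2-fold higher, a share near the 13.6% of all genes. It was Ppp1r15a, the stress-induced subunit of the eIF2 phosphatase (18.5 and 62.2 CPM, 1.75). The kinase genes Mknk1 and Mknk2, whose products phosphorylate eIF4E, had 0.53 and 0.33. Dohh and Dhps, the enzymes that make hypusine on eIF5A, had -0.96 and -0.70, on the same side as Eif5a. Of 11 genes of poly(A) binding and scanning, 3 (27.3%) were at least 2-fold lower, against 13.0% of all genes. These were Pabpc4 (-1.54), the ribosome recycling factor Abce1 (-1.43) and Larp1 (-1.22). Of 5 termination and rescue genes, Gspt1, the release factor eRF3a, had -1.01, Pelo -0.85 and Etf1, the release factor eRF1, -0.65. Of 9 mitochondrial translation factors, 1 (11.1%) was at least 2-fold lower, Tsfm (-1.01), a share near the 13.0% of all genes. Tufm was at -0.71 and Mtif3 at 0.57, and the median of the list was -0.30.

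The larger lists of the protein synthesis machinery also had negative medians. Of 20 cytosolic tRNA synthetase genes, 7 (35%) were at least 2-fold lower, against 13.0% of all genes, and none higher, with a median of -0.78 and the lowest values for Vars (-1.33), Eprs (-1.33) and Rars (-1.26). Of 82 measured cytosolic ribosomal protein genes, 10 (12.2%) were at least 2-fold lower, a share near the 13.0% of all genes, and none higher, with a median of -0.57. Their lowest values were for Rpl36a (-1.55), Rpl13 (-1.47) and Rps27a (-1.31), from 199, 119 and 1010 counts in the untreated library. Ribosomal protein genes have many processed copies, so single values are uncertain. By the share at least 2-fold lower, the initiation and elongation factors (23.8%) lay between these sets. The order differed for log2 folds below 0, where the factors had the lowest share of the 3 sets. Such folds were found for 51 of 63 factors, 19 of 20 tRNA synthetase genes and 78 of 82 ribosomal protein genes. The differences between the sets were not tested.

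**Figure D5:**
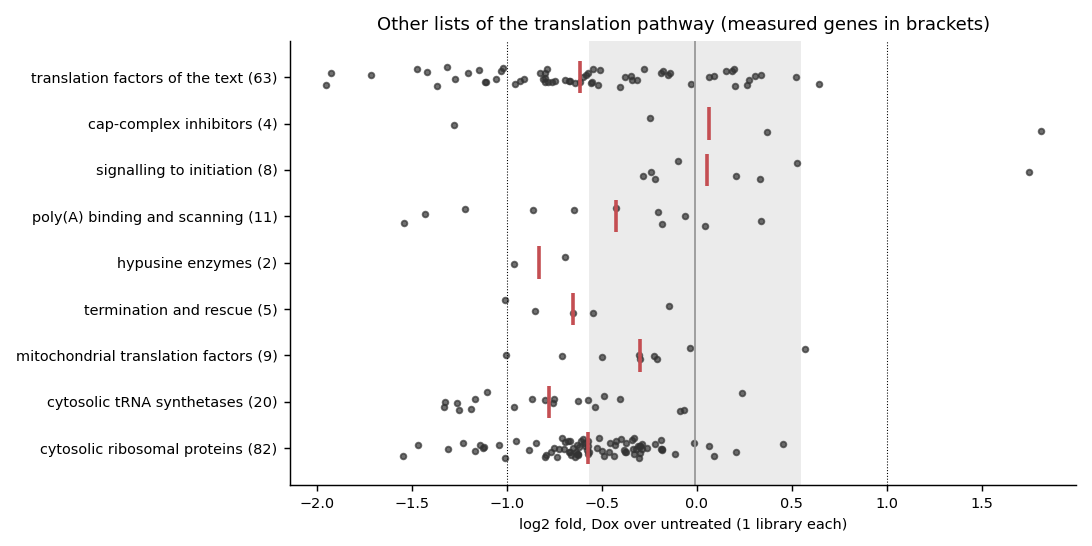
Log2 fold of each measured gene (points) and the median (red line) for the 63 translation factors and 8 other lists of the pathway; grey shows the quartiles and median of all measured genes, dotted lines 2-fold. Most points of the tRNA synthetase and ribosomal protein lists lie left of 0, and Pdcd4 and Ppp1r15a are the 2 points right of the upper 2-fold line.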

How the data were processed

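RNA sequencing covered 1 untreated and 1 Dox library (3 days). The deposited values are raw counts of reads per gene by Entrez identifier, with a gene length column used only for levels per kilobase and a length trend. The counts rest on CASAVA 1.8.2, featureCounts and build mm10, per the submitters' processing notes. The sources used here do not give the aligner, strand setting, annotation or treatment of multiple alignments. With strand use unknown, reads of overlapping and antisense genes cannot be told apart. Single-sample tables held the same counts (0 of 27179 genes differed), and 0 columns lacked a sample. RefSeq (GRCm38.p6) gave 25275 symbols and GENCODE 18; 1886 genes without a symbol stayed in the totals.

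Counts were scaled with TMM factors (edgeR 4.0.16, R 4.3.3). Each log2 fold subtracts log2 CPM values computed with 2 prior counts; CPM and plain ratios carry none. A gene was measured if either library reached 1 CPM (12125 genes). With 1 library per condition the planned replicated edgeR comparison was not run and no test was made. Intervals are exact Clopper-Pearson 95% intervals of the conditional binomial, and for ratios of ratios the exact conditional interval of the odds ratio. PCR copies are not independent molecules, so they cover counting error only. Transcripts of other, non-overlapping GENCODE genes with at least 97% identity over at least 100 bases (blastn 2.17.0) marked 17 members with shared stretches. These covered at least 50% of the transcript for 5: Eif3j1, Eif3j2, Eif4a3l1, Eef1a1 and Eef1g. The next largest shares were 43.4% for Eif4a1, 37.0% for Eif2s3x and 32.2% for Eif5a.

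Every measured member is named, with counts and intervals for those at least 2-fold lower and the extremes of each group, and of each other list the 3 members with the largest absolute log2 fold; Eif4enif1 is added as the remaining cap-complex inhibitor. The members, lists and pairs were chosen with earlier results of these data known. Alternatives were scaling by total count, by upper quartile or by DESeq2 1.42.0, a prior of 0.5 or 5 counts, a minimum of 1 count or of 5 CPM in either library, removal of a lowess trend with gene length, a 1.5-fold threshold, and a call from the whole counting interval. Calculations used Python 3.11.15 with scipy 1.17.1 and statsmodels 0.14.6. Folds and intervals were tried on simulated counts that held counting error only. That trial cannot show how the intervals hold with variation between animals or PCR copies.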

Additional observations from a re-analysis of the deposited data

How the results depend on the processing

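The count of 15 members at least 2-fold lower lay between 11 and 16 under the alternatives that kept the 2-fold threshold. A counting interval wholly beyond 2-fold was found for 11 (8.38% of all genes). Under upper quartile scaling 14 passed (12.4% of all genes), where Eif3j1 left, and 16 after removal of the gene length trend (12.3% of all genes). At 1.5-fold, 33 members were lower and 1 was higher (24.1% and 23.6% of all genes). At 2-fold the count of members higher was 0 under every other alternative run, against 9.11% to 17.3% of all genes. With the length trend removed, the medians were -0.45 for eIF3, -0.51 for eIF4 and -0.77 for eIF5 and eIF6 (-0.59, -0.55 and -0.60 without that step), Eif4g1 and Eif5a2 passed 2-fold and Eif3j1 did not, and the small folds of Eef1akmt2, Eif3k and Eif4g3 changed sign. Of 114 alternative values, 109 were classed as the same, for medians and counts by the counting interval of the median or 1.5-fold of the main count. Many had little room to move. They include paralog shifts under another prior count, and scaling shifts all folds nearly alike. The tally is therefore no measure of robustness. Scaling moved single log2 folds by at most 0.03. No paired analysis was possible because each condition had 1 library, and for the same reason no library could be left out. Members with few counts, such as Eif4a3l1, Eef2kmt, Eif5a2 and Eif4ebp3, are limited by depth.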

Other observations

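Ratios of counts between regulators and their targets, chosen after the values were seen, do not depend on scaling. Pdcd4 had 0.283 counts per count of its target Eif4a1 without Dox and 2.56 with it, a log2 shift of 3.18 (interval 3.08 to 3.28). Eif4ebp2 had 0.798 and 2.24 counts per count of Eif4e, a shift of 1.49 (1.37 to 1.6), whereas Eif4ebp1 had 0.141 and 0.125, a shift of -0.17 with an interval across 0 (-0.43 to 0.09). Eef2k had 0.0334 and 0.0185 counts per count of Eef2 (-0.85, interval -0.97 to -0.74). Within complexes, Eif2b3 had 0.626 and 0.142 counts per count of Eif2b2 (-2.14, interval -2.35 to -1.93), and Eif3b had 0.970 and 0.373 per count of Eif3h (-1.38, interval -1.44 to -1.31). These values describe transcripts in 1 library per condition, and protein was not measured.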
